A study of Mus musculus with 14 samples.

Results

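Arntl (the gene of BMAL1), Arntl2 (BMAL2), Clock and Npas2 encode the activating proteins of the mammalian circadian clock. They were picked by name from the deposited gene table, where these 4 of the 55401 genes carry those symbols, and all 4 passed the filter that left 18175 genes to test. BMAL1 and CLOCK are transcription factors with basic helix-loop-helix and PAS domains that pair and bind E-box DNA, which switches on the Per, Cry and Nr1d genes. PER and CRY proteins then block the pair, while NR1D proteins repress, and ROR proteins activate, Arntl through DNA sites called ROREs. NPAS2 can take the place of CLOCK, and BMAL2 can pair with CLOCK as BMAL1 does. In the suprachiasmatic nucleus (SCN), the hypothalamic pacemaker, this loop times daily behaviour.

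The libraries came from laser-cut SCN of adult mice on a C57BL/6 background, most of them males over 8 weeks old, all kept in constant darkness after 14 days of a light-dark cycle. Vipr2-/- mice lack VPAC2, the receptor for the peptide VIP that couples SCN neurons, and wild-type mice carry Vipr2+/+. Scheduled voluntary exercise (SVE) meant access to a running wheel for 6 h of every 24 h after 14 days of free run, and mice without a schedule (nSVE) ran free throughout. The groups were 3 Vipr2-/- SVE, 3 Vipr2-/- nSVE, 4 wild-type SVE and 4 wild-type nSVE libraries. SVE lasted 6 to 9 days in Vipr2-/- mice and 35 to 40 days in wild type, until the mice had entrained. Mice that failed to entrain were dropped, as were Vipr2-/- nSVE mice without a rhythm, so the groups hold selected animals with different lengths of exercise. SVE mice were killed 2 h after the wheel became available and nSVE mice at circadian time 14, while the series text also gives circadian time 24 for wild-type SVE. Genotype, length of exercise and circadian time therefore cannot be told apart in some of these comparisons. The labels do not say that each library is a separate animal, so p-values measure the spread between libraries.

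The RORE sites of Arntl are shown because they are the binding sites through which Nr1d1, the partner gene with the smallest p here, is known to act on Arntl. RefSeq promoter windows of 250 bases before and 50 bases from each annotated start were available for all 4 members on GRCm38.p6. The pair of AGGTNA matches around the second Arntl start share the 5 bases before them. The letters AAAGTAGGTNA that this gives, read on both strands, occurred in 20 of 32851 such windows, or 0.0609%. Since the letters were read from the Arntl sites, their presence there is not a finding. Both sites lie on the plus strand, at chr7:113207485-113207514 and chr7:113207528-113207557 with their flanks, 5′ to 3′, and the motif is in capitals.
Arntl RORE 1: ggagcggattggtcggAAAGTAGGTTAgtg
Arntl RORE 2: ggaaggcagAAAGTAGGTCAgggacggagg
The first motif begins 37 bases from the first annotated start, counted from 1 at that start, and the second begins 27 bases from the second. The 250 bases before the first start, chr7:113207215-113207464 on the plus strand, held no match to that motif. They are shown to place the sites beside the rest of the promoter, with CCAAT boxes on either strand (CCAAT or ATTGG, 7 of them) in capitals.
Arntl promoter: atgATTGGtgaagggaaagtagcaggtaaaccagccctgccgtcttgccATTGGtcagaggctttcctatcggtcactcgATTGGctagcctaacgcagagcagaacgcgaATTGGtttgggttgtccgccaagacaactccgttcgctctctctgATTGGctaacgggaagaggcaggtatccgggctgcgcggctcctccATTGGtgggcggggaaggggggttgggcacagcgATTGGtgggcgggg
At least 1 CCAAT box was present in 37.4% of all windows. The windows of Clock, Npas2 and Arntl2 held no match to the Arntl RORE letters. One of the 3 Clock windows held the shorter receptor half-site AGGTCA, here as TGACCT on the gene's strand, which 16.3% of windows carry. It is shown to set beside the Arntl sites, at chr5:76303604-76303633 on the minus strand.
Clock half-site: agctttggcctcTGACCTgacagatgacag
The E-box CACGTG was found in none of the members' windows, against 7.15% of all windows. For Nr1d1, an E-box target of BMAL1 and CLOCK, the window held 1 copy of the variant CACGTT, here as AACGTG at chr11:98775388-98775417 on the minus strand, where 4.68% of windows hold it.
Nr1d1 E-box variant: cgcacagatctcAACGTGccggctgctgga

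Depth ran from 17709080 to 48794679 recovered reads per library. Vipr2 itself followed the labels, with a mean of 176 ± 77.9 normalized counts in Vipr2-/- SVE and 178 ± 37.3 in Vipr2-/- nSVE (SD, n = 3 each), against 8192 ± 1483 in wild-type SVE and 6656 ± 341 in wild-type nSVE (n = 4 each). All 10 SCN markers had a mean above 0 in every group. The shares of tested genes at 0 were 10.5%, 3.99% and 16.3% in Vipr2-/- SVE and 11.2%, 11.8% and 20.7% in Vipr2-/- nSVE, against 1.22% to 8.23% over the wild-type libraries. In 5 of the 6 Vipr2-/- libraries the share exceeded that of every wild-type library, and replicate 3 was the sparsest of each Vipr2-/- group. Over all tested genes the median log2 fold change of Vipr2-/- over wild type was -0.10 under nSVE and -0.10 under SVE, and that of SVE over nSVE was 0.045 in Vipr2-/- and 0.028 in wild type.

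None of the 4 activator genes passed an adjusted p of 0.05 in limma in any of the 7 comparisons. The share of all tested genes that passed was 0.611% for Vipr2-/- against wild type under nSVE, 0.176% in the SVE comparison and 1.18% in the average of both. It was 0.116% for SVE against nSVE in Vipr2-/-, 1.28% in wild type, 1.45% averaged over genotypes and 0.0220% for the interaction. At an unadjusted p under 0.05, 1 of the 4 members passed under nSVE and 1 in the average over conditions (both times Arntl), 1 for SVE in Vipr2-/- (Arntl2) and 1 for the interaction (Clock). The background shares at that unadjusted threshold were 14.3%, 17.8%, 13.8% and 10.3% in the same order of comparisons. No member passed in the 3 other comparisons, where 12.5% to 15.0% of genes did. The count tests of edgeR and DESeq2 on the recovered reads also called none of the 4. A value per library cannot tell fewer cells of a type from less RNA per cell.

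**Figure D1:**
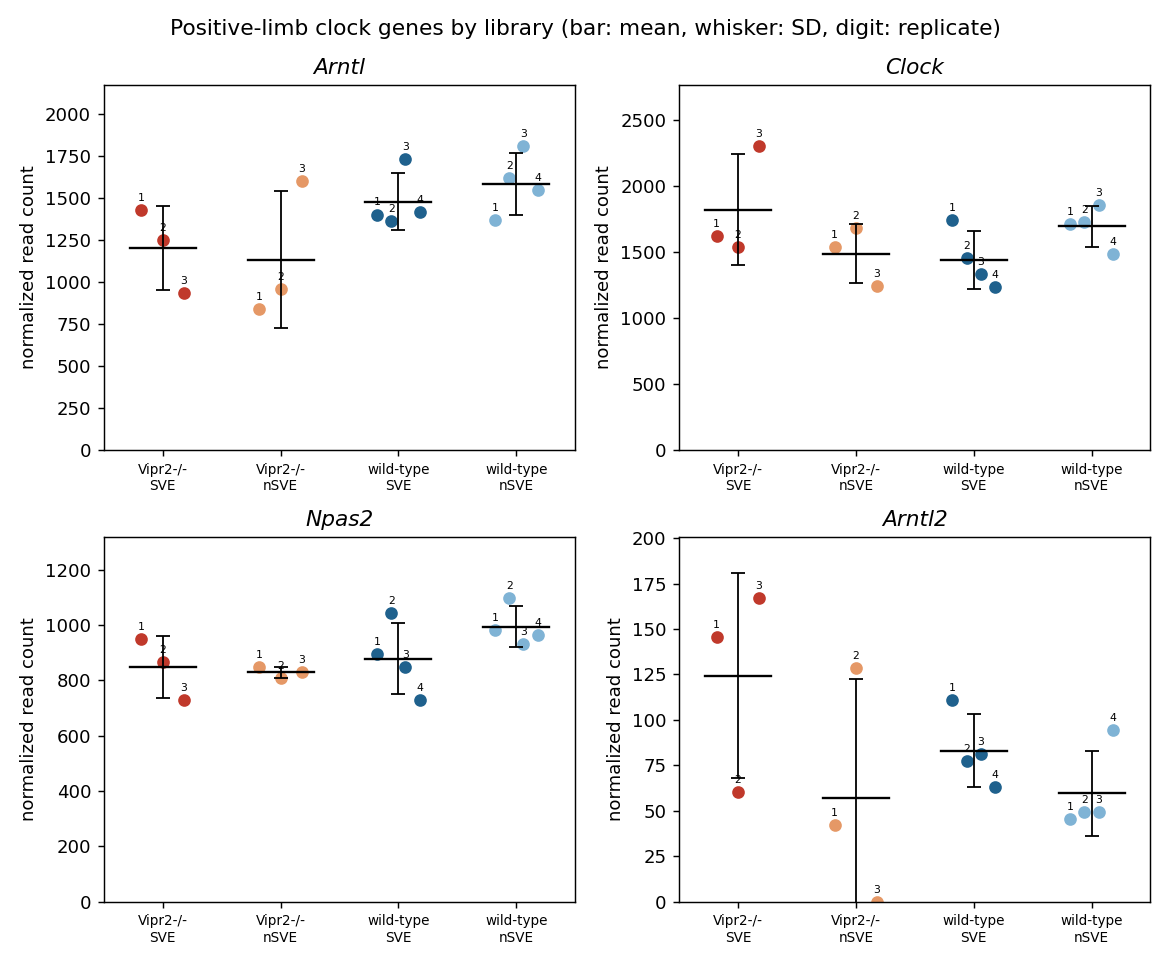
Normalized read count of each activator gene (vertical axis, from 0) in each library, with groups along the horizontal axis; points are libraries with their replicate number, the bar is the group mean and the whisker the SD, cut at 0 for Arntl2. Arntl of Vipr2-/- nSVE splits into 839 and 962 in replicates 1 and 2 and 1601 in replicate 3, and Npas2 of Vipr2-/- nSVE lies below all 4 wild-type nSVE libraries.

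Arntl encodes BMAL1, the partner that CLOCK and NPAS2 share, and lies at chr7:113207465-113314126 on the plus strand (GRCm38). Its values were 1429, 1250 and 937 normalized counts in Vipr2-/- SVE libraries 1 to 3 and 839, 962 and 1601 in Vipr2-/- nSVE. Wild-type SVE libraries 1 to 4 had 1404, 1367, 1734 and 1417, and wild-type nSVE libraries had 1369, 1619, 1813 and 1548. In 4 of the 6 Vipr2-/- libraries Arntl lay below every wild-type library; replicate 3 of the nSVE group and replicate 1 of the SVE group lay within the wild-type range, so the genotypes overlapped in both conditions.

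Under nSVE, Arntl averaged 1134 ± 409 in Vipr2-/- (SD, n = 3) and 1587 ± 184 in wild type (n = 4). The log2 fold change was -0.54 ± 0.20 (SE, 95% interval -0.97 to -0.10), or 0.690-fold, with an adjusted p of 0.265 in limma. Under SVE it averaged 1205 ± 249 in Vipr2-/- and 1480 ± 170 in wild type, a log2 fold change of -0.31 ± 0.20 with an adjusted p of 0.493 in limma, and -0.14 without the sparse Vipr2-/- SVE replicate 3. Averaged over both conditions, the difference was -0.42 ± 0.14 (interval -0.73 to -0.12), with an adjusted p of 0.15 in limma. It ranked 1199th of 18175 genes by p.

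Whether Arntl passed depended on which libraries were left out. Replicate 3 of Vipr2-/- nSVE was also the only library of its group with high Arntl (1601, against 839 and 962). Leaving it out cannot tell its sparseness from its Arntl value. Without replicate 3 of Vipr2-/- nSVE, the library with most genes at 0, the nSVE difference was -0.81 with an adjusted p of 0.0546, and the averaged difference was -0.56 with an adjusted p of 0.0259 in limma. Without the sparsest library of both Vipr2-/- groups, the nSVE difference was -0.81 (adjusted p = 0.0171) and the averaged difference -0.48 (adjusted p = 0.0392) in limma. Over all single omissions of 14 libraries the nSVE difference stayed between -0.81 and -0.35. With all libraries and a covariate for genes at 0, Arntl did not pass in any comparison.

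**Figure D2:**
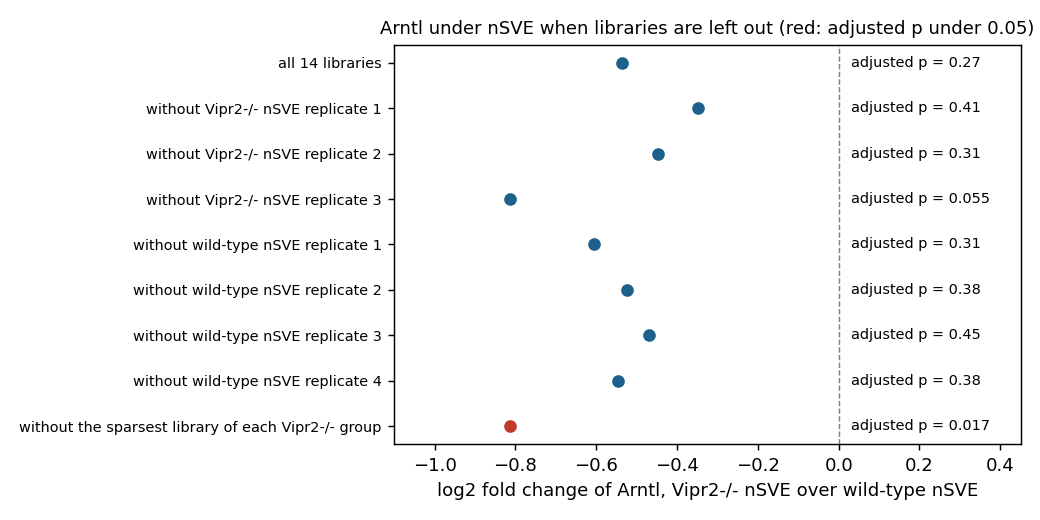
Log2 fold change of Arntl in Vipr2-/- nSVE over wild-type nSVE (horizontal axis) with all libraries and with the named library or libraries left out (rows), with limma's adjusted p printed at the right. All points lie below 0, between -0.81 and -0.35, and only the fit without both sparse libraries (red) has an adjusted p under 0.05.

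Marker sums of other cells are given beside this difference because laser-cut tissue can vary in its content. The 10 SCN markers summed to 51530 to 57890 in Vipr2-/- nSVE libraries and 57590 to 62900 in wild-type nSVE. The 6 oligodendrocyte markers summed to 58250 to 71450 in Vipr2-/- nSVE and 69160 to 94900 in wild-type nSVE. Markers of a list did not all move one way. Avp and Vip averaged 6525 and 4464 in Vipr2-/- nSVE, against 13550 and 8487 in wild-type nSVE. Six6 and Gad2 averaged 2608 and 17480, against 1857 and 14160. The median log2 fold change of the SCN markers was 0.18, with 3 called lower and 0 higher in limma. Of the oligodendrocyte markers, Mobp averaged 3215 against 10380, and Mog 859 against 681. Of 6 microglial and 6 endothelial markers, 1 each (Aif1 and Kdr) was at 0 in all 3 Vipr2-/- nSVE libraries. The endothelial marker Tek and the ependymal marker Ccdc153 reached 0 in at least 1 of them. Aif1 was also low in wild-type nSVE (25.2 ± 28.1), where it reached 0 as well. The microglial sums overlapped, at 3680 to 4211 in Vipr2-/- nSVE and 3328 to 4142 in wild-type nSVE. So did the endothelial sums, at 1575 to 2974 in Vipr2-/- nSVE and 2346 to 2493 in wild-type nSVE. Their part in the Arntl values was not tested. Within a genotype, no difference with exercise passed for Arntl. SVE over nSVE gave 0.12 ± 0.22 in Vipr2-/- (interval -0.34 to 0.59) and -0.10 ± 0.19 in wild type (interval -0.50 to 0.30), with adjusted p values of 0.825 and 0.952 in limma. Without both sparse libraries the difference in Vipr2-/- was 0.57 and the interaction 0.67, against 0.22 with all libraries, and neither passed (adjusted p = 0.212 and 0.406 in limma). Arntl shares 33 exon bases with an antisense gene, which is listed at 0 on average.

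Clock, at chr5:76209868-76304792 on the minus strand, encodes CLOCK, the usual partner of BMAL1 in the SCN. Vipr2-/- SVE libraries had 1616, 1540 and 2302 normalized counts and Vipr2-/- nSVE libraries 1534, 1682 and 1242. Its values were 1738, 1453, 1331 and 1232 in wild-type SVE and 1712, 1723, 1854 and 1482 in wild-type nSVE. The group means ran highest in Vipr2-/- SVE (1819 ± 420), then wild-type nSVE (1693 ± 155), Vipr2-/- nSVE (1486 ± 224) and wild-type SVE (1438 ± 219), and every pair of groups compared overlapped. The single highest library was Vipr2-/- SVE replicate 3, 1 of the 2 sparse libraries.

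The estimates with exercise had opposite signs in the 2 genotypes: SVE over nSVE was 0.28 ± 0.18 in Vipr2-/- and -0.24 ± 0.15 in wild type (adjusted p = 0.485 and 0.604 in limma). The interaction, the difference of these 2 differences, was 0.52 ± 0.24 (interval 0.020 to 1.02) with an adjusted p of 0.468 in limma. Without both sparse libraries the interaction was 0.22 (adjusted p = 0.774) and the SVE difference in Vipr2-/- was -0.026. Vipr2-/- over wild type was -0.19 ± 0.17 under nSVE and 0.33 ± 0.17 under SVE, with adjusted p values of 0.613 and 0.372 in limma. These were -0.071 and 0.15 without the sparse library of the Vipr2-/- group compared.

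Npas2, at chr1:39193731-39363236 on the plus strand, encodes the CLOCK paralogue that is best known from the forebrain. Vipr2-/- SVE libraries had 949, 868 and 728 normalized counts, and Vipr2-/- nSVE libraries 847, 807 and 831. Wild-type SVE libraries had 894, 1042, 849 and 729 and wild-type nSVE libraries 983, 1099, 930 and 964. It was the steadiest of the 4 genes, with a coefficient of variation of 12.1% over the 14 libraries, against 17.2% for Clock, 21.4% for Arntl and 57.2% for Arntl2. Under nSVE all 3 Vipr2-/- libraries lay below all 4 wild-type libraries, the 1 member of 4 with no overlap. Groups that do not overlap were found for 11.2% of tested genes in that comparison, with 6.25% lower in Vipr2-/-. The log2 fold change there was -0.26 ± 0.16 (interval -0.59 to 0.072), with an adjusted p of 0.464 in limma. In the 3 other pairs of groups no member was free of overlap, where 14.1% of tested genes were for the genotypes under SVE, 9.99% for SVE in Vipr2-/- and 14.7% for SVE in wild type. The log2 fold changes were -0.047 for Vipr2-/- over wild type under SVE, 0.025 for SVE in Vipr2-/- and -0.19 for SVE in wild type.

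Arntl2, at chr6:146796055-146833529 on the plus strand, encodes the BMAL1 paralogue BMAL2. Vipr2-/- SVE libraries had 145, 60.3 and 167 normalized counts, and Vipr2-/- nSVE libraries 42.1, 129 and 0. Wild-type SVE libraries had 111, 77.4, 81.3 and 63.2, and wild-type nSVE libraries 45.4, 49.5, 49.3 and 94.5. The values rest on 0 to 184 reads per library. The 0 belongs to Vipr2-/- nSVE replicate 3, the library with most genes at 0. By counting error alone, a count of 0 among its 33349291 reads allows up to 3 reads, or 2.53 normalized counts. Other sources of error are not covered by that limit. The mean was highest in Vipr2-/- SVE (124 ± 56.5), against 56.9 ± 65.6 in Vipr2-/- nSVE, and the groups overlapped.

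Because of that 0, the fitted differences of Arntl2 are no measure of size. SVE over nSVE in Vipr2-/- was 2.69 ± 1.26 with an adjusted p of 0.360 in limma, but 0.62 without that library. Vipr2-/- over wild type under nSVE was -1.71 ± 1.18 (adjusted p = 0.525 in limma) and 0.37 without it. In wild type, SVE over nSVE was 0.51 ± 1.09 (adjusted p = 0.962 in limma).

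**Figure D3:**
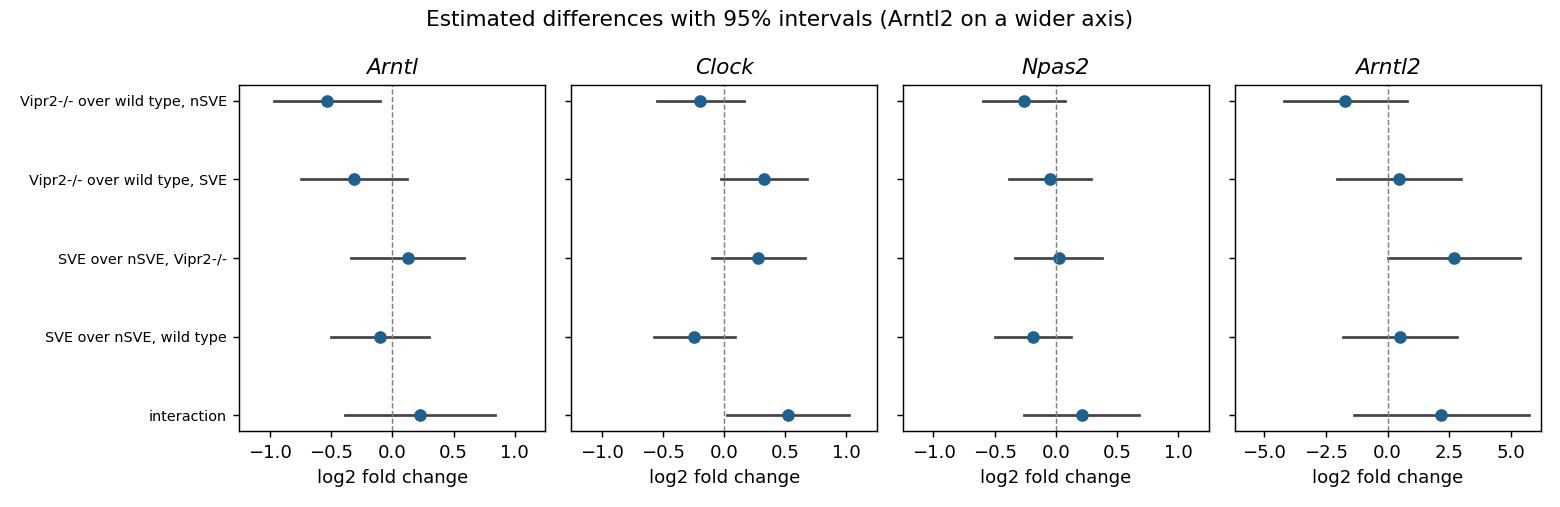
Log2 fold change (points) with its 95% interval (lines) from limma for each activator gene in 5 comparisons, listed down the page; the axis of Arntl2 is wider than the others. The interval of Arntl under nSVE runs from -0.97 to -0.10 and that of the Clock interaction from 0.020 to 1.02, and no point has an adjusted p under 0.05.

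Levels were compared between the genes per kilobase of exon. Npas2 averaged 187 ± 22.6 normalized counts per kilobase over the 14 libraries, Arntl 183 ± 39.2, Clock 117 ± 20.1 and Arntl2 14.0 ± 8.01 (SD). Npas2 and Arntl did not separate, since Npas2 was the higher in 9 of 14 libraries, at a median ratio of 1.05. Arntl exceeded Clock in 12 of 14 libraries, at a median of 1.66-fold, and Clock exceeded Arntl2 in all 14, at a median of 7.78-fold over the 13 libraries with Arntl2 above 0. In the Vipr2-/- groups Npas2 stood first per kilobase, with 177 ± 23.3 under SVE and 173 ± 4.20 under nSVE, where Arntl had 160 ± 33.1 under SVE and 151 ± 54.4 under nSVE. In wild type Arntl stood first, with 197 ± 22.6 under SVE and 211 ± 24.5 under nSVE, where Npas2 had 183 ± 27.0 under SVE and 207 ± 15.3 under nSVE. Each such pair differed by less than the larger of its 2 SDs in that group. Among the 17588 tested genes with a length, Npas2 lay at percentile 66.2, Arntl at 65.8, Clock at 56.1 and Arntl2 at 19.

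None of the 6 pairs of members passed a test of correlation over the 14 libraries after adjustment (permutation test, smallest adjusted p = 0.315 for Pearson's r). Arntl and Npas2 had r = 0.45 (rho = 0.36, permutation p = 0.105 and 0.210), and r was 0.27 without the 2 libraries farthest from the median of Arntl. Arntl and Clock, whose proteins form the pair, had r = -0.35 (rho = -0.13, permutation p = 0.216 and 0.660), and r was -0.14 without those 2. As a description, r of the deviations from the group means was -0.59 for Arntl and Clock. It was 0.18 for Arntl and Npas2 and -0.12 for Clock and Npas2. With Arntl2 it was -0.70 for Arntl, 0.53 for Clock and -0.046 for Npas2. These values with Arntl2 include its 0 in Vipr2-/- nSVE replicate 3 and were not recomputed without that library. Not centred on groups, Arntl and Arntl2 had r = -0.27, and -0.22 over the 13 libraries with Arntl2 above 0. Clock and Arntl2 had r = 0.49 (rho = 0.27, permutation p = 0.0926 and 0.349), and r was 0.31 over the 13 libraries with Arntl2 above 0. The 3 other pairs had r over all libraries between -0.27 and 0.045.

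The genes that act on Arntl through ROREs differed mostly in Nr1d1, which encodes the repressor REV-ERBα. Nr1d1 had 6246, 11808 and 7725 normalized counts in Vipr2-/- SVE libraries and 6874, 6306 and 8263 in Vipr2-/- nSVE. Wild-type SVE libraries had 17562, 15004, 16319 and 17790, and wild-type nSVE libraries 4523, 4948, 3622 and 4206. The wild-type groups stood far apart, with both Vipr2-/- groups between them. SVE over nSVE was 1.95 ± 0.16 in wild type (adjusted p = 3.44e-05 in limma, rank 1 of all genes, and under 0.05 in all 14 single omissions) and 0.22 ± 0.18 in Vipr2-/- (adjusted p = 0.604).

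The interaction of Nr1d1 was -1.73 ± 0.24, with an adjusted p of 0.0128 in limma, and 0.0519 without wild-type SVE replicate 1. Vipr2-/- over wild type under SVE was -1.0 ± 0.17 (adjusted p = 0.0267 in limma), a call lost in 6 of 14 single omissions, with an adjusted p of up to 0.199. That call was also lost without both sparse libraries (adjusted p = 0.0863), with edgeR (0.0555), with only the compared groups fitted (0.134) and with a covariate for genes at 0 (0.441). In wild type, where Nr1d1 was 3.87-fold higher under SVE, Arntl had a ratio of 0.933 with a 95% interval of 0.707 to 1.23. Beside these differences, the 10 SCN markers summed to 70170 to 85520 in wild-type SVE and 57590 to 62900 in wild-type nSVE, and 6 oligodendrocyte markers to 44140 to 66760 in wild-type SVE and 69160 to 94900 in wild-type nSVE. The 6 astrocyte markers summed to 31170 to 32640 in wild-type SVE and 33830 to 39810 in wild-type nSVE. None of these sums overlapped between the groups. The SCN markers moved unevenly, with a median log2 fold change of 0.56. Rgs16 averaged 15100 in wild-type SVE and 4481 in wild-type nSVE, and Six3 15840 and 10510. Vip was lower under SVE, at 5692 against 8487. Avp averaged 13350 and 13550, and Gad2 14100 and 14160. The part of these markers in the differences was not tested.

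Among the RORE regulators reported here, Nr1d1, Nr1d2, Rora and Rorb, only Nr1d1 passed in any comparison, in 4 of the 7. Nr1d2, the second REV-ERB repressor, averaged 1685 ± 203 in Vipr2-/- SVE, 1456 ± 35.1 in Vipr2-/- nSVE, 1221 ± 288 in wild-type SVE and 1314 ± 72.9 in wild-type nSVE. The activators Rora and Rorb lay between 1993 and 3415 and between 3229 and 5006 normalized counts over all libraries. For Vipr2-/- over wild type under nSVE their log2 fold changes were -0.29 ± 0.15 and 0.14 ± 0.14 (adjusted p = 0.399 and 0.665 in limma). As a description over the 14 libraries, Arntl had r = -0.020 with Nr1d1, -0.43 with Nr1d2, 0.46 with Rorb and -0.035 with Rora.

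**Figure D4:**
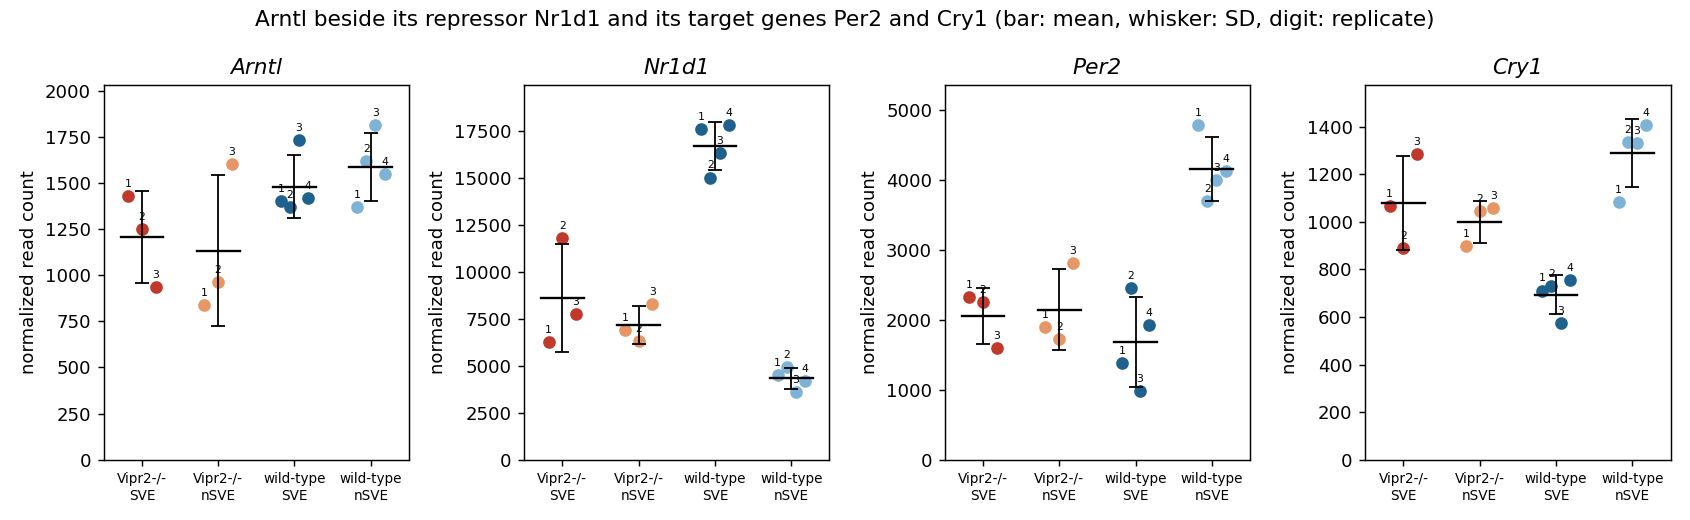
Normalized read count (vertical axes, from 0) of Arntl, its repressor Nr1d1 and the E-box genes Per2 and Cry1 by library, with group mean (bar) and SD (whisker). The wild-type SVE and wild-type nSVE points are apart for Nr1d1, Per2 and Cry1 and overlap for Arntl.

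The E-box targets of the activator pair did not move one way. In wild type with SVE, 1 of the 16 listed targets rose (Nr1d1), 2 fell (Per2 and Cry1) and 13 did not pass. Of all tested genes, 1.28% passed in that comparison. Of the 16 targets, 5 lay above 0 and 11 below. The list's median log2 fold change was -0.23, against 0.028 over all tested genes. Per2, a repressor of the pair, had 2317, 2251 and 1590 in Vipr2-/- SVE, 1889, 1730 and 2802 in Vipr2-/- nSVE, 1376, 2452, 980 and 1920 in wild-type SVE, and 4778, 3692, 3997 and 4125 in wild-type nSVE. All wild-type nSVE libraries exceeded every other library. Its log2 fold change with SVE in wild type was -1.38 ± 0.23 (adjusted p = 0.0135 in limma), with an adjusted p of up to 0.0630 when wild-type SVE replicate 1 or wild-type nSVE replicate 1 was left out.

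Cry1, another repressor of the pair and itself driven through ROREs as well, had 1067, 891 and 1286 in Vipr2-/- SVE, 900, 1045 and 1058 in Vipr2-/- nSVE, 711, 732, 573 and 757 in wild-type SVE, and 1084, 1337, 1332 and 1407 in wild-type nSVE. Wild-type SVE was the lowest group, with no overlap with any other. SVE over nSVE in wild type was -0.90 ± 0.15 (adjusted p = 0.0136 in limma, and 0.0521 without wild-type SVE replicate 1). In Vipr2-/- no listed target passed with SVE: Per2 differed by -0.048 ± 0.27 and Cry1 by 0.098 ± 0.18. The interactions, 1.33 ± 0.36 for Per2 and 0.99 ± 0.23 for Cry1, did not pass (adjusted p = 0.341 and 0.293 in limma).

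Between the genotypes, Tef, a PAR bZIP transcription factor, was the one listed target that passed as higher in Vipr2-/-. It averaged 10590 ± 1874 in Vipr2-/- SVE and 5906 ± 991 in wild-type SVE, a log2 fold change of 0.84 ± 0.16 (adjusted p = 0.0422 in limma, a call lost in 9 of 14 single omissions). Averaged over conditions it was 0.74 ± 0.11 (adjusted p = 0.00330 in limma, under 0.05 in all 14 omissions, and 0.412 with a covariate for genes at 0). No target passed under nSVE, where 10 of the 16 lay above 0 and the median was 0.18, against -0.10 over all tested genes. Under SVE, 11 of the 16 lay above 0 and the median was 0.37, against -0.10. The median over all tested genes depended on the setting. With a filter of 50 in 3 libraries it was -0.060 under nSVE and -0.047 under SVE. With a covariate for genes at 0 it was 0.0088 under nSVE and 0.011 under SVE. The median of the targets was not recomputed under these settings.

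The rest of the named E-box targets did not pass in any comparison. Per1, an E-box and light-responsive repressor gene, averaged 4078 ± 1258 in Vipr2-/- SVE, 3498 ± 568 in Vipr2-/- nSVE, 4925 ± 2667 in wild-type SVE and 3225 ± 697 in wild-type nSVE. Per3, the third period gene, had a log2 fold change of 0.78 ± 0.22 for Vipr2-/- over wild type under SVE (adjusted p = 0.152 in limma). Cry2, the second cryptochrome repressor, had -0.24 ± 0.088 for SVE over nSVE in wild type (adjusted p = 0.237 in limma). Dbp, a PAR bZIP output gene, averaged 4854 ± 972 in Vipr2-/- SVE, 6081 ± 1820 in Vipr2-/- nSVE, 5710 ± 2355 in wild-type SVE and 3190 ± 198 in wild-type nSVE. Its interaction was -1.07 ± 0.34 (adjusted p = 0.383 in limma). Ciart, Bhlhe40 and Bhlhe41, which encode repressors of the activator pair, had interactions of -0.79 ± 0.56, 0.055 ± 0.26 and -0.36 ± 0.38 (adjusted p = 0.607, 0.954 and 0.733 in limma).

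Of 19 co-regulators and modifiers of the activators, 1 passed as lower in Vipr2-/- and 1 as higher with SVE. Over all tested genes, 0.611% passed between genotypes under nSVE and 1.45% with SVE averaged over genotypes. Ncor1, a corepressor that NR1D1 recruits, averaged 3418 ± 209 in Vipr2-/- nSVE and 5336 ± 323 in wild-type nSVE. The log2 fold change was -0.64 ± 0.096 (adjusted p = 0.00567 in limma, under 0.05 in all 14 omissions, and 0.0724 with a covariate for genes at 0). Kmt2a, a histone methyltransferase that works with CLOCK, was 0.27 ± 0.063 higher with SVE averaged over genotypes (adjusted p = 0.0451 in limma, lost in 11 of 14 omissions). Among 14 tested genes of the wider bHLH-PAS family, Npas4, which neuronal activity induces, was the one that passed. It averaged 941 ± 354 in wild-type SVE, against 305 ± 114 in wild-type nSVE. The log2 fold change was 1.63 ± 0.34 (adjusted p = 0.0302 in limma, lost in 6 of 14 omissions), in a comparison where 1.28% of all tested genes passed. Arnt and Arnt2, the general partners of that family, did not pass in any comparison, with Arnt2 between 8121 and 10510 in all libraries.

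Ratios within a library do not depend on how it was scaled, and 4 were followed through 6 comparisons. None of the 24 passed after adjustment (exact permutation test, two-sided, smallest adjusted p = 0.103). Before adjustment, the smallest p possible was 0.0286 for 3 against 4 or 4 against 4 libraries, and 0.10 for 3 against 3. After adjustment over 24 tests, a ratio compared between single groups could therefore hardly pass. Not passing there is no evidence that the groups are alike. The ratio of Arntl to Nr1d1 was 0.229, 0.106 and 0.121 in Vipr2-/- SVE, 0.122, 0.153 and 0.194 in Vipr2-/- nSVE, 0.0799, 0.0911, 0.106 and 0.0797 in wild-type SVE, and 0.302, 0.327, 0.501 and 0.368 in wild-type nSVE. All wild-type nSVE libraries had more Arntl per Nr1d1 than every other library. In wild type the mean log2 ratio differed by -2.05 between SVE and nSVE (exact permutation p = 0.0286, the smallest that 4 against 4 libraries allow, adjusted p = 0.137), and in Vipr2-/- by -0.099 (exact permutation p = 0.800, where 3 against 3 cannot go below 0.10).

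The ratio of Arntl to Per2 had a mean log2 difference of 1.28 between SVE and nSVE in wild type (exact permutation p = 0.0286, adjusted p = 0.137), and differed by 0.17 in Vipr2-/- (exact permutation p = 0.30). Arntl to Clock had a mean log2 difference of -0.49 between Vipr2-/- and wild type averaged over conditions (exact permutation p = 0.0620, adjusted p = 0.213), and -0.69 to -0.31 over single omissions. In Vipr2-/- nSVE this ratio was 0.547 and 0.572 in replicates 1 and 2 and 1.29 in replicate 3, against 0.800 to 1.04 in wild-type nSVE. Npas2 to Clock lay between 0.316 and 0.717 over all libraries.

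**Figure D5:**
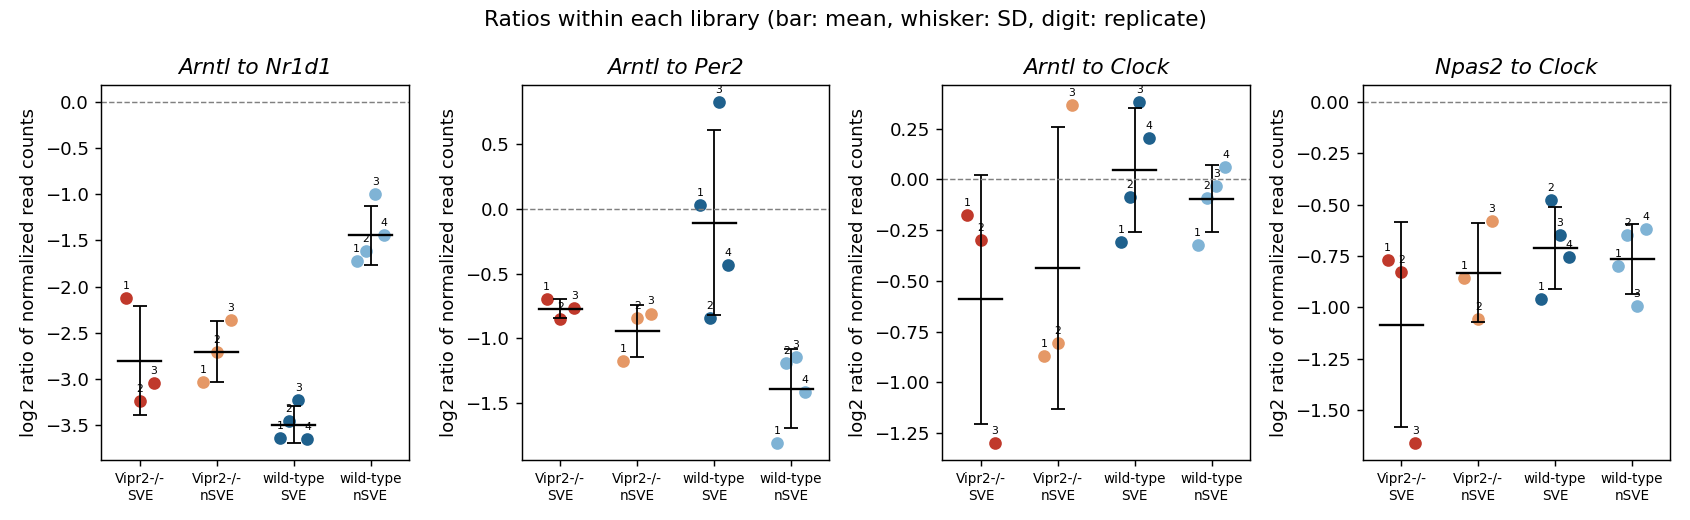
Log2 ratio of normalized read counts within each library (vertical axes) for 4 gene pairs, with the mean (bar) and SD (whisker) of each group. For Arntl to Nr1d1 the wild-type SVE libraries are at the bottom and the wild-type nSVE libraries at the top, 2.05 apart in their means, with 5 of the 6 Vipr2-/- libraries between them and 1 Vipr2-/- SVE library within the wild-type SVE range.

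The genes with the most similar pattern were ranked by Pearson's r on the log2 scale over the 14 libraries, among 12307 genes, as a description without a test. Arntl was most like Gpc4 (r = 0.87), Samd8, Pqlc2, Fuom and Cct3 (down to 0.84), and least like Coch (-0.88), Hnrnpk and Atp8b2 (up to -0.83). Clock was most like Atg12 (r = 0.89), Susd5, Flrt2, Tmem260 and Thsd7a (down to 0.86), and least like Larp6 (-0.89), Vegfb and Rpp25l. Npas2 was most like Lynx1 (r = 0.81), Cops6, Fxyd1, Zc3h11a and Gsk3b, and least like Heatr6 (-0.85), Sema5b and Atp8a1. Arntl2 was most like Aplf (r = 0.98), Taf1b, Slc38a9, Kcnf1 and Naf1, which like Arntl2 were at 0 to 11.8 normalized counts in Vipr2-/- nSVE replicate 3; without that library r was 0.67 to 0.86. It was least like Fech (-0.92), Psmf1 and Tctn2, with r of -0.775, -0.59 and -0.56 without that library. No core clock gene was among these, and all points share the libraries' depth.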

How the data were processed

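Total RNA of laser-cut SCN was sequenced in 14 libraries, and groups came from the sample titles. Per the labels' protocols, 20 µm sections were stained with cresyl violet before cutting. The submitters' processing notes name Trimmomatic, FastQC, HISAT2, StringTie and DESeq2, with no versions, and the design text gives Trimmomatic for trimming, HISAT2 for alignment and StringTie for counts. The deposited table holds 1 signal for each gene and library: counts that the authors divided by 1 size factor per library, called normalized counts here. Such scaling sets each value relative to the other genes of its library, and whether counting used strand is not given in the sources used here. The design text names GRCm38 and the notes GRCm39. The coordinates settled this: 54349 of 55401 identifiers are in GENCODE M21 (GRCm38), all 54349 with its coordinates.

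Whole reads were recovered to within 0.001 reads for 100% of values, and edgeR 4.0.16 and DESeq2 1.42.0 were run on them as alternatives. The filter kept genes that reached 10 in 3 or more libraries. The main test was limma 3.58.1 (R 4.3.3) with a mean-variance trend on log2(value + 1), 1 mean per group over all 14 libraries, and Benjamini-Hochberg adjustment over genes in each of 7 comparisons. Fold changes are on that scale, which understates those of low genes. A value of 0 in a group can instead enlarge them, as for Arntl2 in Vipr2-/- nSVE. The interaction is the SVE difference in Vipr2-/- minus that in wild type. Ratios were compared by exact permutation tests, adjusted over 24, and member pairs by 100000 permutations. The limit for a count of 0 covers counting error only. The fits were tested on simulated data.

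Named were the 4 members, Vipr2, the clock partners, up to 4 called genes of each list (E-box targets, RORE regulators, co-regulators, RORE-driven genes, other bHLH-PAS genes), and for each member the 5 genes of highest and 3 of lowest r. The members and lists were chosen with earlier results of these data known. Of the RORE-driven genes, Cry1 passed, lower with SVE in wild type, and Nfil3 did not. One result that these rules select is not reported here. Promoter sequences are from RefSeq. Alternatives were other pseudocounts, filters, scaling, tools and fits, the replicate block, the share of genes at 0 as a covariate, and left-out libraries.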

Additional observations from a re-analysis of the deposited data

Results flagged for a closer look

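Within wild-type groups of 4, 3 libraries lay far from the other members of their group by Dixon's ratio of gap to range, above its 95% critical value, among 44 groups of genes and conditions looked at; chance flags about 1 in 20 groups. Arntl in wild-type SVE replicate 3 was 1734 normalized counts, against 1367, 1404 and 1417 in the other libraries of that group (ratio 0.862). Arntl2 in wild-type nSVE replicate 4 was 94.5, against 45.4, 49.3 and 49.5 (ratio 0.917). Per1 in wild-type nSVE replicate 2 was 4266, against 2799, 2870 and 2965 (ratio 0.887). The effect of SVE on Nr1d1 differed between Vipr2-/- and wild type, with an interaction of -1.73 on the log2 scale (adjusted p = 0.0128 in limma), a call lost without wild-type SVE replicate 1 (adjusted p = 0.0519) and with the replicate number as a block (0.0957). The cause of these differences was not tested.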

How the results depend on the processing

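The 28 log2 fold changes of the 4 members (7 comparisons each) were recomputed under 25 alternatives. Of 688 values, 653 kept direction and side of the threshold, 32 changed direction, 3 newly passed and 0 were lost. With the sparsest library left out of each Vipr2-/- group, Arntl passed under nSVE (-0.81) and averaged over conditions (-0.48). Under the same setting Arntl2 was 0.37 between genotypes under nSVE, 0.28 averaged over conditions and -0.17 in the interaction. Npas2 between genotypes under SVE was 0.058, Clock with SVE in Vipr2-/- was -0.026, and Clock with SVE averaged over genotypes was -0.13. With a covariate for genes at 0, Npas2 was 0.054 between genotypes under SVE and -0.036 with SVE in Vipr2-/-, and Arntl2 was 0.79 between genotypes on average and -0.20 with SVE in wild type. Arntl2 between genotypes on average was 0.23 with edgeR and 0.26 with DESeq2, and Arntl with SVE on average was -0.0077 with DESeq2. The cause of these changes was not tested.

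Same-numbered libraries were not shown to be pairs: over 19 pairs the correlation of deviations ran from -0.054 to 0.117, with 1 over 0.1, and for 9 of 14 libraries the best match had its own number. With the replicate number as a block, Clock between genotypes on average was -0.000275, and no other member changed direction or passed. The block left 69 calls between genotypes on average, against 215 without it, and the adjusted p of the Nr1d1 interaction was 0.0957.

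Leaving out 1 library at a time moved some directions. Between genotypes, Arntl2 ran from -3.14 to 0.37 under nSVE and from -1.33 to 0.42 on average, Npas2 from -0.13 to 0.058 under SVE, Clock from -0.025 to 0.13 on average, and Arntl from -0.56 to -0.33 on average. With SVE in Vipr2-/-, Arntl ran from -0.064 to 0.40 and Npas2 from -0.060 to 0.13; with SVE averaged over genotypes, Arntl ran from -0.082 to 0.15 and Clock from -0.072 to 0.073. Among log2 ratios, Arntl to Clock ran from -0.37 to 0.25 with SVE in Vipr2-/- and from -0.11 to 0.19 with SVE on average. Npas2 to Clock ran from -0.41 to 0.033 with SVE in Vipr2-/-, -0.18 to 0.044 with SVE on average, -0.19 to 0.048 between genotypes under nSVE and -0.022 to 0.14 with SVE in wild type. Arntl to Per2 ran from -0.23 to 0.046 between genotypes on average, and Arntl to Nr1d1 from -0.44 to 0.12 with SVE in Vipr2-/-.

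Counts of called genes over the whole table moved more than the members. The lowest and highest over all alternatives were 16 and 525 between genotypes under nSVE (111 as reported), 6 and 1102 under SVE (32) and 12 and 1013 on average (215). With SVE they were 0 and 394 in Vipr2-/- (21), 29 and 1201 in wild type (233) and 57 and 911 on average (264), and 0 and 175 for the interaction (4). With 3 or 4 libraries per group, the standard errors of Arntl, Clock and Npas2 between 2 groups were 0.145 to 0.218 on the log2 scale. Differences well above 1 standard error could also go uncalled at this spread. Arntl under nSVE, at -0.54 ± 0.20, had an adjusted p of 0.265 in limma. Arntl2 is also limited by at most 184 reads in a library.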
